A study of Mus musculus with 6 samples.

Results

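Neutrophil lineage cells were examined in single-cell RNA-seq libraries of the mouse main olfactory epithelium (MOE). They were defined as cells in which the transcripts of *S100a8* and *S100a9* made up at least 2% of the unique molecular identifiers (UMIs, the counted RNA molecules), with fewer than 5 UMIs of *C1qa*, *C1qb* and *C1qc* together and none of *Cd79a*. Among cells with at least 1000 UMIs and 500 genes, 1033 of 24830 met this rule, which is 4.16%. The 6 libraries were 2 of swap mice, 2 of control mice, 1 named *tetOP2* and 1 named *gg8tTA* here. The swap mice (CbxSwap with Cre, Cbx\*/\*) carry a conditional allele at *Cbx1*, the gene of HP1β, from which Cre recombination replaces HP1β by HP1α (*Cbx5*). Control replicate 1 is labelled WT with the same Cre and control replicate 2 Cbx\*/\* with no Cre named, so the controls differ from each other in both alleles. The remaining libraries are labelled gg8-tTA; tetOP2iresGFP and gg8-tTA, and the series' design text names gg8-tTA transgenes for all mice while the swap and control labels do not. That text also speaks of sorted cells, without a gate for these libraries. The age of the mice is not given in the sources used here, nor whether animals were pooled. The labels name olfactory sensory neurons (OSNs) as the cell type of every library, whereas the cells described here were chosen by genes of another lineage.

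Neutrophils are short-lived phagocytes that are made in the bone marrow and enter tissues from the blood. Their precursors fill granules in a fixed order, first the primary granules with myeloperoxidase and elastase, then the secondary granules with lactoferrin and cathelicidin, and last the gelatinase granules. Mature cells no longer make most granule transcripts and instead express receptors for G-CSF, chemokines and microbes. S100A8 and S100A9 together form calprotectin, an abundant cytosolic protein of the lineage.

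The rule used *S100a8* and *S100a9*, so their high share is not a result. Close to the limit, 68 cells lay between 1% and 2% and 50 between 2% and 3%. The lowest cell inside the rule held 2.08% in swap replicate 1 and the highest cell outside 1.99%, and in control replicate 1 these were 2.27% and 1.75%. In *gg8tTA* no member lay near the limit, with 20.7% the lowest inside and 0.237% the highest outside. A further 3 cells were left out for *C1q* UMIs and 11 for a *Cd79a* UMI. The name was checked against 11 other genes of the lineage (*Csf3r*, *Cxcr2*, *Retnlg*, *Mmp8*, *Mmp9*, *Lcn2*, *Ngp*, *Camp*, *Ltf*, *Il1r2* and *Mcemp1*). At least 3 of them were found in 975 of the 1033 cells, and 1 cell had none. More monocyte than neutrophil markers were found in 9 cells, 8 of them in swap replicate 2. At least 2 of 5 monocyte markers were found in 68 cells, at least 2 of 8 macrophage markers in 68, at least 2 of 6 OSN markers in 66 and at least 2 of 4 sustentacular markers in 65. For eosinophils, B cells, T and NK cells, basophils and mast cells this was so in 1 or 2 cells each. The rule allowed no *Cd79a* UMI, and the markers *Ighm*, *Igkc* and *Trbc2* were not among the genes counted. Of the B cell markers only *Cd79b* and *Ebf1* could be found, so that low count was partly fixed in advance. Of the 66 cells with OSN markers, 13 were among the 19 members of *tetOP2* and 10 among the 14 of *gg8tTA*. Summed over a library's members, the 8 macrophage markers stood at 55.6 to 260 CPM (UMIs scaled to a common total, the usual CPM unit), against 30600 to 56730 CPM in macrophages. These 8 include *C1qa*, *C1qb* and *C1qc*, which chose both the members and the macrophages. Part of this gap, and of the count of cells with macrophage markers, was therefore fixed in advance. The 5 monocyte markers stood at 434 to 1096 CPM. The 6 OSN markers stood at 276 to 719 CPM in members and 2411 to 6657 CPM in the other cells. The name neutrophil lineage thus describes most but not all of the members. No cell barcode was shared between members of different libraries, and 60 barcodes of kept cells were shared over the 15 pairs of libraries.

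Neutrophil lineage cells were more frequent in both swap libraries than in the controls. The swap libraries held 7.12% (356 of 5003 kept cells) in replicate 1 and 7.22% (357 of 4947) in replicate 2. The control libraries held 1.73% (88 of 5091) and 4.49% (199 of 4433). The *tetOP2* and *gg8tTA* libraries held 0.741% (19 of 2563) and 0.501% (14 of 2793). The exact Clopper-Pearson 95% intervals ran from 6.42% to 7.86% and from 6.51% to 7.97% in the swap libraries, from 1.39% to 2.13% and from 3.90% to 5.14% in the controls, and they cover counting error only. The swap mean was 7.17% ± 0.0712 (SD, n = 2) and the control mean 3.11% ± 1.95 (SD, n = 2), a ratio of 2.31. The groups did not overlap, with p = 0.33 in the exact two-sided permutation test over libraries, the smallest value that 2 against 2 libraries allow. A sort or a live gate can set such shares, and fewer other cells and more neutrophils cannot be told apart. The intervals of the controls did not overlap each other.

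This difference changed with the depth asked of a cell. The *tetOP2* and *gg8tTA* matrices held no barcode under 3638 UMIs, while the other matrices held many. Among cells with at least 3638 UMIs, a limit chosen after seeing the data, members made up 3.87% and 6.20% in swap and 1.38% and 4.53% in control libraries. Swap replicate 1 then fell below control replicate 2 and the groups overlapped (p = 0.667, exact permutation test). Of the cells with a UMI of *Ptprc*, the common leukocyte antigen, members were 49.4% and 33.4% in swap, 24.5% and 30.5% in control, and 12 of 60 cells in *tetOP2* and 12 of 61 in *gg8tTA*. B lineage cells also varied between the libraries. Cells with at least 2 *Cd79a* UMIs were 2.72% and 10.7% in swap and 5.17% and 10.6% in control. In both groups replicate 2 held more of them than replicate 1, and their part in the neutrophil share was not tested. Macrophages made up 1.86% and 2.12% of kept cells in swap and 1.91% and 1.35% in control libraries.

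**Figure D1:**
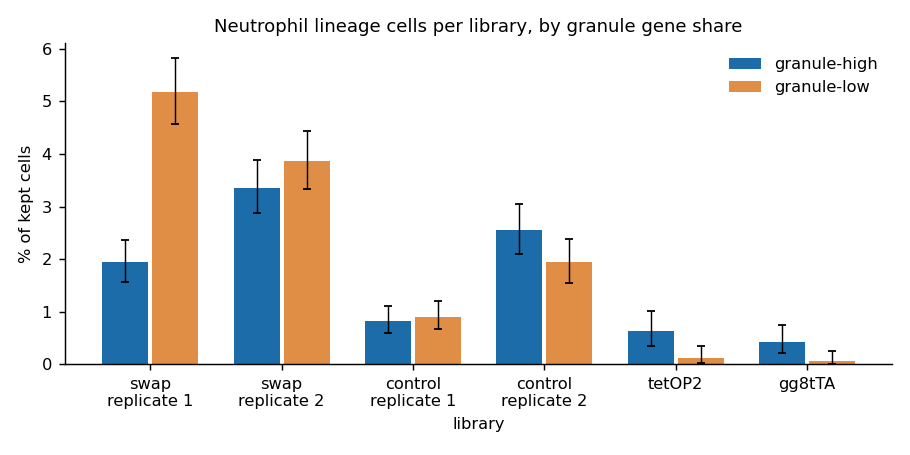
Share of kept cells (y axis, percent) that were granule-high (blue) or granule-low (orange) neutrophil lineage cells in each library, with exact 95% binomial intervals. In swap libraries granule-low cells made up 5.18% and 3.86%, in controls 0.904% and 1.94%, and granule-high cells overlapped between the groups.

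The members were split by the summed share of *Ltf* (lactoferrin), *Camp* (cathelicidin) and *Ngp* (neutrophilic granule protein), which are secondary granule genes. Cells with at least 1% of their UMIs in these genes are called granule-high here and the others granule-low. These are ranges of a score and not cell types. Of the members, 446 were granule-high and 587 granule-low, 394 had no UMI of the 3 genes, and 65 lay between 0.5% and 2%. Granule-high cells were 27.2% of members in swap replicate 1 and 46.5% in swap replicate 2. In the controls they were 47.7% and 56.8%, and in *tetOP2* and *gg8tTA* 84.2% (16 of 19) and 85.7% (12 of 14). The swap mean was 36.9% ± 13.6 and the control mean 52.3% ± 6.40 (SD, n = 2 each; p = 0.33, exact permutation test). Swap replicate 2 and control replicate 1 lay within each other's intervals, from 41.2% to 51.8% and from 37.0% to 58.6%. Without predicted doublets, which were 21.6% of the members in control replicate 1 and 1.40% to 4.52% in the other swap and control libraries, control replicate 1 fell to 34.8% and the groups overlapped (p = 0.667, exact permutation test). Counted against all kept cells, granule-low cells were 5.18% and 3.86% in swap and 0.904% and 1.94% in control libraries, a ratio of means of 3.18. Granule-high cells were 1.94% and 3.36% against 0.825% and 2.55%, and these overlapped. In the *tetOP2* and *gg8tTA* libraries granule-low cells were 0.117% and 0.0716% of kept cells.

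Granule-high cells held more RNA. Their median depth was 10779 and 9147 UMIs in the swap libraries, 14059 and 10156 in the controls, 13502 in *tetOP2* and 5911 in *gg8tTA*. Granule-low cells had medians of 2863 and 3398 UMIs in swap, 3105 and 3792 in control libraries. In the swap libraries 195 of 259 and 108 of 191 granule-low cells had under 3638 UMIs, in the controls 29 of 46 and 39 of 86. Such cells have no counterpart in the *tetOP2* and *gg8tTA* files, so the low number of granule-low cells there and the minimum of those files cannot be told apart. Over all members the median was 3388 and 5649 UMIs in swap and 4618 and 7328 in control libraries, which overlapped (p = 0.667, exact permutation test). Thinned to 1000 UMIs, a granule-high cell showed a median of 343 to 380 genes over the 6 libraries, a granule-low cell 362 to 440, a macrophage 562 to 601 and an *Omp*-expressing neuron (at least 3 *Omp* UMIs, 500 cells a library) 665 to 697. The neutrophil lineage thus had fewer genes per UMI than the other classes in every library. The rule chose members for a high share of UMIs in *S100a8* and *S100a9*, which by itself lowers this count. The size of that part was not tested. After the same thinning 27.8% and 45.7% of swap and 48.9% and 57.8% of control members were granule-high, close to the shares at full depth.

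**Figure D2:**
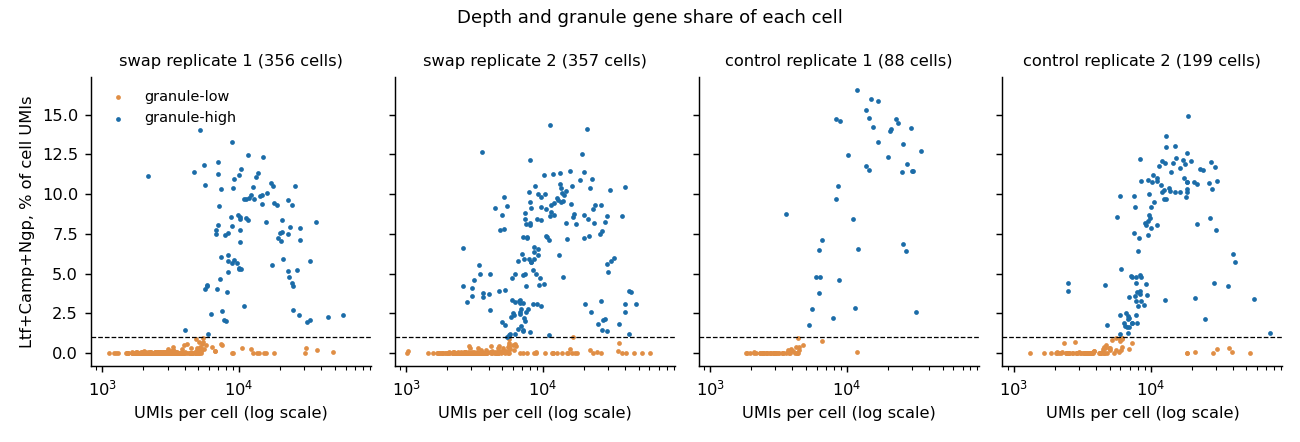
UMIs per cell (x axis, log scale) against the share of *Ltf*, *Camp* and *Ngp* in the cell's UMIs (y axis, percent) for each member of the swap and control libraries, with a dashed line at 1%. Granule-low cells (orange) gather below 5000 UMIs, with a smaller number of deep cells, and most granule-high cells (blue) lie above that depth.

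A small group at the deep end carried the primary granule genes. *Mpo*, *Elane*, *Prtn3* and *Ctsg*, which encode myeloperoxidase and the serine proteases of primary granules, together made up at least 1% of the UMIs in 36 members. They were 10, 17, 1 and 6 cells in swap replicates 1 and 2 and control replicates 1 and 2, and 2 and 0 in *tetOP2* and *gg8tTA*. Their median depth lay between 30943 and 39719 UMIs, and 34 of the 36 had at least 20000 UMIs. Of these cells 22 were granule-high and 14 granule-low. The granule-low range therefore held cells of both ends: 13 of its 21 cells with at least 20000 UMIs were of this kind. A further 38 kept cells had the same level of primary granule transcripts but too few *S100a8* and *S100a9* UMIs to be members, so the rule holds only a part of the early cells. *Elane* UMIs were found in 21 and 32 members of the swap libraries, 10 and 14 of the controls, 3 of *tetOP2* and none of *gg8tTA*. In control replicate 1 a single cell of 32017 UMIs, a predicted doublet, held 82.9% of them, and it was the only member of that library past the 1%.

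The genes that chose the 2 ranges stand together in the genome. *Camp*, *Ngp* and *Ltf* lie within 1.20 Mb of chromosome 9 (GRCm38.p6, RefSeq). The upstream sequences of these genes and of *Lcn2*, a secondary granule gene that was not used for the split, are shown because the 4 transcripts were high in the same cells. Each sequence holds the 250 bases before the RefSeq start, 5′ to 3′ on the strand of the gene, with capitals for matches to TTGCNNAA or its reverse complement TTNNGCAA, a core of sites bound by C/EBP factors. *Camp* lies on the minus strand at chr9:109849457-109849706, *Ngp* on the plus strand at chr9:110419558-110419807, *Ltf* on the plus strand at chr9:111019042-111019291 and *Lcn2* on the minus strand at chr2:32387740-32387989.
Camp: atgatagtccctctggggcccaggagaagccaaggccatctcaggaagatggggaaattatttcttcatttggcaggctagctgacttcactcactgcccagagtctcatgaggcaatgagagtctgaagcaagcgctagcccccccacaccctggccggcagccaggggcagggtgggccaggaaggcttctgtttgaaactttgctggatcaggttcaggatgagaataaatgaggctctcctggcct
Ngp: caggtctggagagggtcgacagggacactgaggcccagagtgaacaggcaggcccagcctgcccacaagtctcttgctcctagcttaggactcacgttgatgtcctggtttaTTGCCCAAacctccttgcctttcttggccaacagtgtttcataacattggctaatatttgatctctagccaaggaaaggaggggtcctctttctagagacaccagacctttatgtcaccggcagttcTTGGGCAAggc
Ltf: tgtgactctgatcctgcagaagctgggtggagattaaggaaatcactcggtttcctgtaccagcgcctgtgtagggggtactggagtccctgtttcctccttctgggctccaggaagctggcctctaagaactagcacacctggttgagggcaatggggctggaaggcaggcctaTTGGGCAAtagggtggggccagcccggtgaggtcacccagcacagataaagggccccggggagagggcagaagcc
Lcn2: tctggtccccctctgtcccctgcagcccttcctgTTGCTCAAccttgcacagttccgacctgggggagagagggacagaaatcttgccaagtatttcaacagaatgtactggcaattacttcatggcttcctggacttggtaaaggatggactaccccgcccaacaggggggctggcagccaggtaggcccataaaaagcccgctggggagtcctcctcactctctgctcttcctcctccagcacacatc

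*Ngp* held 2 matches, starting 138 and 11 bases before the start, *Ltf* held 1 at 75 bases and *Lcn2* 1 at 216 bases. No match was found in the window of *Camp*. Among the 7 genes of the secondary granule list, 3 held a match, and of all 32851 windows of that length 9.56% did. This describes letters in these windows and not binding.

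Granule-high cells expressed further secondary granule genes and cell cycle genes, and granule-low cells expressed receptors and cytokines. The test used the UMIs summed per library and range in the 4 swap and control libraries, with the library as a block, since *tetOP2* and *gg8tTA* had fewer than 10 granule-low cells. A gene was called when its adjusted p was under 0.05 (edgeR quasi-likelihood test, Benjamini-Hochberg) and its log2 fold change exceeded 0.58 in either direction. Of 6548 genes other than *Ltf*, *Camp* and *Ngp*, 769 were called (11.7%), 363 higher (5.54%) and 406 lower (6.2%) in granule-high cells. The split and the test used the same cells, so the p-values describe how well the libraries agree on genes that did not make the split. Markers of other cells moved with the ranges. The 8 macrophage markers summed to 349, 688, 341 and 130 CPM in granule-low and 39.9, 31.7, 32.9 and 30.1 CPM in granule-high cells of swap replicates 1 and 2 and control replicates 1 and 2. They include the *C1q* genes, which the rule capped at fewer than 5 UMIs per cell whatever its depth. In CPM this cap is lower for the deeper granule-high cells, and its part in the gap was not tested. The 6 OSN markers stood at 351, 778, 56.9 and 1571 against 315, 90.9, 327 and 428 CPM, so they were higher in granule-low cells of 3 libraries and lower in control replicate 1. The 5 monocyte markers were higher in granule-low cells of both replicates 2 (1356 and 1013 against 899 and 752 CPM) and lower in both replicates 1 (299 and 177 against 591 and 494 CPM). *Ly6c2*, one of the 5, stood at 504, 667, 426 and 753 CPM in members with at least 20% of *S100a8* and *S100a9*. In those cells *Ccr2* and *F13a1* stood at 0 CPM, so this sum need not mark monocytes. The part of transcripts of other cells in the changes below was not tested. Without swap replicate 1 the test called 288 genes, without swap replicate 2 437 and without control replicate 2 439. Without predicted doublets the test called 1140 of 5599 genes (20.4%). Control replicate 1 then went from 42 granule-high cells with 669484 UMIs to 24 with 243451. The values printed for granule-high cells of control replicate 1 include the predicted doublets unless stated.

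All 4 tested genes of the secondary granule list were higher in granule-high cells, with a median log2 fold change of 3.02 against -0.01 over all genes. *Lcn2*, the siderophore-binding lipocalin 2, stood at 11680, 10190, 13030 and 9259 CPM, taken over the UMIs summed per range, in granule-high cells of swap replicates 1 and 2 and control replicates 1 and 2. In granule-low cells it stood at 3985, 2156, 1321 and 1309 CPM. All granule-high values lay above all granule-low values (log2 fold change 2.74 ± 0.385 SE, adjusted p = 0.00339, edgeR). *Chil3*, a chitinase-like protein, changed most of the 4, from 10.8, 373, 6.32 and 20.2 CPM in granule-low to 3421, 3736, 6645 and 5245 CPM in granule-high cells. *Itgb2l*, an integrin β subunit, and *Cybb*, the catalytic subunit of the phagocyte oxidase, differed by 2.66 ± 0.298 and 3.30 ± 0.303 on the log2 scale. Of the 6 oxidase genes *Cybb* alone was called.

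Cell cycle genes were higher in the same range. Of 9 tested genes 7 were called, all higher in granule-high cells, with a median log2 fold change of 1.97. *Mki67*, a marker of cycling cells, stood at 205, 290, 260 and 346 CPM in granule-high and 23.6, 147, 0 and 103 CPM in granule-low cells. The ranges did not overlap. *Top2a*, the DNA topoisomerase of dividing cells, stood at 158, 310, 260 and 346 against 43.2, 194, 12.6 and 130 CPM, and the ranges overlapped across libraries but not within one. *Tyms* and *Stmn1* did not pass (adjusted p = 0.0722 and 0.131, edgeR). Thinned to 1000 UMIs, *Mki67* was found in 8.25%, 13.9%, 23.8% and 13.3% of granule-high and 0.386%, 2.09%, 0% and 1.16% of granule-low cells. In *Omp*-expressing neurons of the same libraries, which do not divide, it was found in 0.6%, 0.8%, 0.6% and 1.2%. The granule-low value lay above that background in swap replicate 2 and not in the other libraries.

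None of the 6 primary granule genes was called, with adjusted p of 0.425 to 0.852 (edgeR). *Elane* stood at 1492, 1456, 341 and 781 CPM in granule-high cells and at 1171, 2659, 0 and 2610 CPM in granule-low cells, so its direction differed between libraries. Of the gelatinase granule and late genes 1 of 6 was called, *Slpi*, a leukocyte protease inhibitor, which was lower in granule-high cells at 467, 555, 224 and 660 against 1948, 1608, 1681 and 2164 CPM. *Mmp8*, the neutrophil collagenase, stood at 490, 1130, 369 and 1271 CPM in granule-high and 415, 723, 910 and 1145 CPM in granule-low cells. *Retnlg*, a resistin-like secreted protein, was at 4345, 5218, 3936 and 7319 CPM in granule-high against 6645, 11100, 23480 and 21900 CPM in granule-low cells, which did not pass (adjusted p = 0.105, edgeR).

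Receptors of mature neutrophils were lower in granule-high cells. Of 17 genes 10 were called, all lower, with a median log2 fold change of -1.62. *Csf3r*, the receptor of G-CSF, stood at 44.9, 57.5, 52.3 and 69.0 CPM in granule-high cells and at 521, 377, 411 and 609 CPM in granule-low cells. The ranges did not overlap (log2 fold change -2.82 ± 0.250 SE, adjusted p = 0.000733, edgeR). *Cxcr2*, a chemokine receptor that draws neutrophils out of the marrow, stood at 82.7, 103, 32.9 and 134 against 330, 404, 512 and 516 CPM. *Cxcr4*, the receptor of CXCL12, also fell, by 1.99 on the log2 scale, and so among others did *Il1r2* (the decoy receptor of IL-1), *Trem1*, *Fcgr3*, *Tlr2*, *Selplg* and *Clec4d*. The integrin genes *Itgam* and *Itgb2*, the formyl peptide receptors *Fpr1* and *Fpr2*, *C5ar1*, *Tlr4* and *Cd14* did not pass the test.

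Cytokine genes showed the widest gap of the lists. Of 11 genes 9 were called, all lower in granule-high cells, with a median log2 fold change of -3.58. *Il1b* (interleukin-1β) stood at 273, 128, 41.8 and 298 CPM in granule-high and 7819, 3443, 7483 and 3361 CPM in granule-low cells. *Cxcl2*, a chemokine that attracts neutrophils, stood at 589, 399, 137 and 205 against 13480, 4707, 2970 and 1502 CPM. Thinned to 1000 UMIs, an *Il1b* UMI was found in 81.2% to 91.9% of granule-low cells and 8.43% to 21.2% of granule-high cells of the 4 libraries, in 32.0% to 35.5% of macrophages and in at most 0.6% of *Omp*-expressing neurons. *Tnf* and *Osm* did not pass (adjusted p = 0.18 and 0.611, edgeR). Of 6 tested interferon-induced genes *Isg15*, *Rsad2* and *Ifitm1* were called, all lower in granule-high cells.

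Among the transcription factors 1 of 10 was called higher and 3 lower. *Cebpe*, the C/EBP factor needed for secondary granules, stood at 441, 390, 397 and 342 CPM in granule-high and 102, 108, 44.2 and 58.7 CPM in granule-low cells. *Cebpb*, a C/EBP factor of mature and activated myeloid cells, stood at 819, 800, 807 and 1178 against 4215, 2161, 3577 and 2842 CPM. *Cebpa* and *Junb* were also lower, by -1.80 and -1.95 on the log2 scale. The genes of the HP1 proteins, *Cbx1*, *Cbx3* and *Cbx5*, had log2 fold changes of 0.72, 0.69 and 0.54 and did not pass (adjusted p = 0.0812 to 0.315, edgeR).

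**Figure D3:**
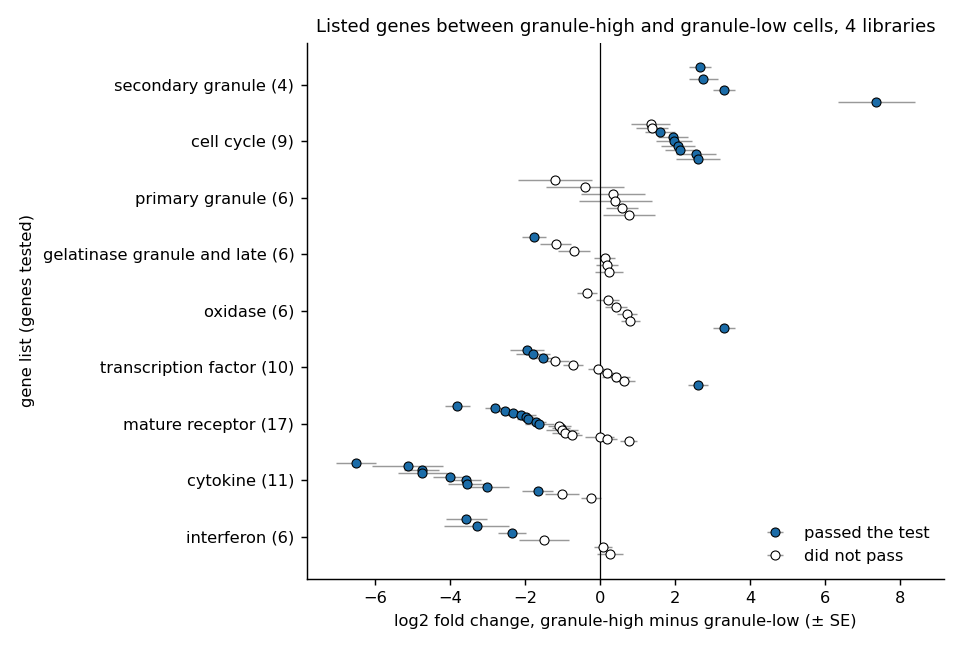
Log2 fold change between granule-high and granule-low cells (x axis, with SE) of the tested genes of 9 lists (y axis), over the 4 swap and control libraries. Filled points were called. Secondary granule and cell cycle genes lie to the right, receptor and cytokine genes to the left, and primary granule genes about 0 with wide errors.

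Beyond the lists, the 10 genes with the smallest adjusted p in each direction were taken. The higher ones were *Cybb*, *Ly75*, *Krt81*, *Zmpste24*, *Cd177*, *Ets1*, *Gca*, *Cebpe*, *Lbp* and *Olfml2b*, with log2 fold changes between 2.07 and 5.58. *Cd177* encodes a surface glycoprotein of neutrophils and *Gca* encodes grancalcin, a calcium-binding granule protein. *Krt81*, a hair keratin gene, stood at 39.9, 39.8, 109 and 162 CPM in granule-high cells and at 0, 0, 0 and 9.18 CPM in granule-low cells. Its UMIs lay in few cells, 1.97%, 4.76%, 6.82% and 16.1% of the members of these libraries. The 3 richest cells held 73%, 55%, 79% and 34% of them. The lower ones were *Csf1*, *Fgl2*, *Clec4n*, *Ninj1*, *Amica1*, *Il1a*, *Clec7a*, *Nlrp3*, *Clec4d* and *Arg2*, with log2 fold changes between -3.44 and -6.59. Of these *Clec4n*, *Clec7a* and *Clec4d* encode the C-type lectin receptors dectin-2, dectin-1 and MCL, which bind fungal and mycobacterial sugars and lipids, and *Nlrp3* the sensor of the inflammasome that activates IL-1β. *Csf1*, the growth factor of macrophages, stood at 1.43, 0.905, 2.99 and 0.627 CPM in granule-high and 141, 73.7, 88.5 and 51.4 CPM in granule-low cells. An interaction term, chosen after seeing the data, asked whether this change differed between swap and control libraries. It called none of 6551 genes (edgeR, 90 genes with an unadjusted p below 0.05). The power of this term was not simulated, so equal changes do not follow from it.

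Cells low in *S100a8* and *S100a9* were a larger share of the members in the swap libraries. Members with 2% to 10% of their UMIs in these genes were 18.3% (2% to 5%) and 18.3% (5% to 10%) of all members in swap replicate 1, and 11.5% and 13.7% in swap replicate 2. In the controls they were 5.68% and 11.4% in replicate 1 and 6.53% and 3.52% in replicate 2. These bins use the measure of the rule and are given as a description. In swap replicate 1 the 65 cells of 2% to 5% stood at 8149 CPM of *Il1b*, 12300 of *Cxcl2* and 4705 of *Ccl3*, and the 139 cells above 20% at 1334, 2392 and 621 CPM. In swap replicate 2 the 41 cells of 2% to 5% were deeper, with a median of 8526 UMIs, and held 153 CPM of *Ccr2*, a monocyte receptor, and 4923 CPM of *Elane*. In replicate 1 these cells held no *Ccr2* UMI, so the swap libraries differed in what their cells low in *S100a8* and *S100a9* expressed.

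Between swap and control libraries a single gene was called in the members. The test used UMIs summed over all members of each of the 4 libraries and called 1 of 8836 genes (0.0113%), with 421 at an unadjusted p below 0.05 (edgeR). This count depended on the method and on single libraries: DESeq2 called 37 genes, edgeR with no filter on low counts 250, and edgeR 116 without swap replicate 1, 139 without swap replicate 2, 15 without control replicate 1 and 24 without control replicate 2. The gene was *Saa3*, which encodes serum amyloid A3, an acute phase protein made in tissues. It stood at 278 and 252 CPM in swap against 1.21 and 0 CPM in control libraries, and 0 in *tetOP2* and *gg8tTA*. The fitted log2 fold change was 9.36 ± 0.731 SE with an adjusted p of 0.00507 (edgeR). The controls held 1 UMI in all and the swap members 1527, a ratio of CPM of 780 with a counting interval from 140 to 30820. These UMIs lay in few cells. In swap replicate 1 they were in 15 of 356 members, and the richest cell held 34.3%. In swap replicate 2 they were in 12 of 357 members, of which 1 cell held 79.0%. In replicate 1 they were in granule-low cells (659 CPM against 1.43 CPM in granule-high) and in replicate 2 mainly in granule-high cells (361 against 46.6 CPM). *Saa3* was also found outside the lineage, at 21.8 and 298 CPM in macrophages of the swap libraries. Without predicted doublets no gene was called (smallest adjusted p = 0.408, edgeR), and at an *S100a8* and *S100a9* share of at least 5% none (0.0761). The same cell of swap replicate 2, with 29158 UMIs, also held 40.8% of that library's *Cd74* UMIs.

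The genes with the next smallest p did not pass in the edgeR test of all 4 libraries, but *Chil4*, *Ccl4*, *Cd74*, *Krt81*, *Cpm* and *Wfdc17* passed with DESeq2 (adjusted p of 6.2e-18 for *Ccl4* and 0.0123 for *Wfdc17*). *Chil4*, a chitinase-like protein, *Ccl4*, a chemokine, and *Cd74*, the invariant chain of MHC class II, had adjusted p of 0.065, 0.0773 and 0.0773 in the direction of swap, and *Krt81*, *Unc5b* and *Cpm* of 0.0773, 0.197 and 0.275 in the direction of control (edgeR). In swap replicate 2, 99.2% of the *Chil4* UMIs were in 1 cell, while in replicate 1 117 UMIs were spread over 53 cells. *Ccl4* was more widely spread. It stood at 1592 and 496 CPM in swap and 22.9 and 35.98 CPM in control members, with UMIs in 29.5% and 14.9% of cells against 5.68% and 6.03%, and 7.84% and 11.4% of the swap UMIs in the richest cell. *Wfdc17*, a secreted protein with a WAP domain, was chosen for description after its values were seen. It stood at 1194 and 360 CPM in swap and 19.3 and 3.27 CPM in control members, in 47.5% and 29.97% of cells against 7.95% and 3.02%. Neither gene overlapped between the groups, but neither passed in the main test (adjusted p = 0.0773 for *Ccl4* and 0.128 for *Wfdc17*, edgeR). Most *Ccl4* UMIs lay in granule-low cells, at 3615 and 1417 CPM in swap and 120 and 97.3 CPM in control libraries. Cells of this range were also a larger share of the swap members. Tested within granule-low cells alone, a choice made after seeing the data, no gene of 6103 was called (edgeR, smallest adjusted p = 0.537, 198 genes with an unadjusted p below 0.05), and within granule-high cells none of 7163 (smallest adjusted p = 0.894, 153 genes).

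None of the genes of the 10 lists was called between the genotypes. The 11 cytokine genes had a median log2 fold change of 1.51, the 7 tested interferon genes 1.70 and the 6 primary granule genes 1.07, while the 7 secondary granule genes had -0.59 and the 9 cell cycle genes -0.50, against -0.01 over all genes. Some interferon genes were uneven between the swap libraries. *Ifit1* had 8 and 119 UMIs in swap replicates 1 and 2 and *Isg15* 44 and 338, but *Ifitm1* had 2085 and 2767. In swap replicate 2 the cell of 29158 UMIs described for *Saa3* held 32.8% of the *Ifit1* and 16.3% of the *Ifitm1* UMIs. It was not the richest cell for *Isg15*, *Rsad2* or *Oasl2*. Markers of other cells also differed between the groups. The macrophage markers summed to 170 and 260 CPM in swap and 91.8 and 55.6 CPM in control members, without overlap. The 3 listed T and NK cell markers summed to 100 and 138 against 51.9 and 72.0 CPM, also without overlap. They stood lower, at 7.70 to 13.4 CPM, in the other kept cells of these libraries, and 1 member held at least 2 of them. This sum is therefore not a measure of T or NK cells among the members. The OSN markers stood at 330 and 330 against 276 and 719 CPM and overlapped. The part of these transcripts in the medians of the lists was not tested. *Il1b* stood at 3447 and 1282 CPM in swap and 1464 and 1078 CPM in control members. Swap replicate 2 lay below control replicate 1. *Cxcl2* stood at 6013 and 1899 against 679 and 535 CPM, without overlap, and did not pass (adjusted p = 0.378, edgeR). *Ifitm1*, an interferon-induced membrane protein, stood at 862 and 816 against 170 and 136 CPM (adjusted p = 0.17, edgeR). Replicate 1 was higher than replicate 2 in both groups for *Il1b*, *Cxcl2* and *Cd14* alike.

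**Figure D4:**
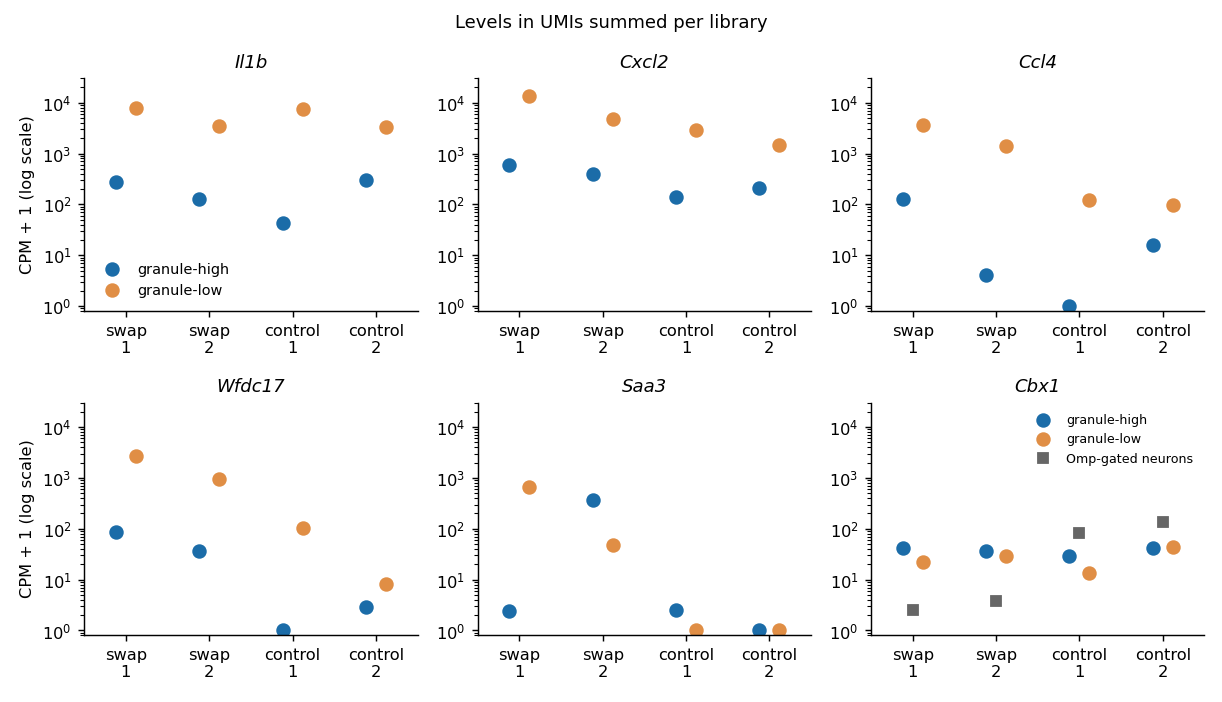
Levels of 6 genes (CPM + 1, log scale) in granule-high (blue) and granule-low (orange) cells of each swap and control library, and of *Cbx1* also in *Omp*-expressing neurons (grey squares). *Il1b* and *Cxcl2* separate the ranges in each library, and *Ccl4* and *Wfdc17* are higher in granule-low cells of the swap libraries. *Saa3* is higher in granule-low cells of swap replicate 1 and in granule-high cells of swap replicate 2. In swap replicate 2 a single cell held 79.0% of the members' *Saa3* UMIs. *Cbx1* is low in swap neurons but not in swap granule-high or granule-low cells.

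*Cbx1*, the gene that the swap allele removes after Cre, was not lower in the members of swap libraries. It stood at 32.2 and 33.02 CPM in swap and 25.4 and 40.7 CPM in control members (log2 fold change -0.09 ± 0.312 SE, edgeR). In *Omp*-expressing neurons of the same libraries, with at least 3 *Omp* UMIs, it stood at 1.54 and 2.89 CPM in swap and 81.6 and 132 CPM in control. *Cbx5* stood at 40.1 and 63.4 CPM in swap and 35.0 and 58.9 CPM in control members (log2 fold change 0.07, adjusted p = 1, edgeR). The neurons of the groups did not overlap in *Cbx1*, and the members did. In macrophages, which were not tested between the groups, *Cbx1* stood at 18.1 and 19.9 CPM in swap and 34.8 and 54.0 CPM in control. *Xist*, which is made from the inactive X chromosome, stood at 434 CPM in members of swap replicate 1, 467 in *tetOP2* and 223 in *gg8tTA*, and at 0 in swap replicate 2 and both controls, where *Ddx3y* of the Y chromosome stood at 72.5, 60.4 and 91.1 CPM. The libraries thus differed in sex-linked transcripts within the swap group.

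Other genes followed the replicate number rather than the genotype. Ribosomal *Rn45s* made up 1.11% and 0.650% of the member UMIs in replicate 1 of swap and control, and 6.94% and 4.70% in replicate 2. The stefin A gene *Stfa1*, which encodes a cysteine protease inhibitor of neutrophils, made up 2.12% and 0.779% in replicate 1 and 0.473% and 0.123% in replicate 2, and *BC100530* of the same family 2.53% and 2.96% against 0.794% and 0.293%. Stefin genes are near-identical copies on chromosome 16, so their reads may be split unevenly and each value is uncertain. *H2-Q10*, a class I MHC gene, had 143 and 48 UMIs in replicate 1 and 0 and 1 in replicate 2. The labels do not say what the number stands for.

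Compared with macrophages of the same libraries, defined by at least 5 *C1q* UMIs and an *S100a8* and *S100a9* share below 2%, the members differed in 3081 of 6539 genes (47.1%; edgeR, 6 libraries with the library as a block), 1446 higher (22.1%) and 1635 lower (25%). With size factors in place of TMM the split was 1261 higher and 1994 lower. Leading higher genes were *Stfa3*, *Stfa2l1*, *Stfa2*, *Mmp8*, *Lrg1*, *Syne1*, *Slpi*, *Adpgk*, *Mgst2* and *Trem1*, and leading lower genes were *Ms4a7*, *Maf*, *Mrc1*, *Gpr34*, *Fcna*, *Cx3cr1*, *Pf4*, *Hpgds*, *Pmepa1* and *Tmem37*. *Mmp8* stood at 354 to 1388 CPM in members over the 6 libraries and at 0 to 2.08 CPM in macrophages. All 7 secondary granule genes, all 6 oxidase genes and all 9 cell cycle genes tested were higher in the neutrophil lineage, against 22.1% of all genes. The cell cycle genes summed to 1492, 1769, 2503 and 1736 CPM in granule-high cells of swap replicates 1 and 2 and control replicates 1 and 2. Granule-low cells stood at 485, 982, 50.6 and 788 CPM and macrophages at 643, 416, 898 and 166 CPM. Granule-low cells thus lay below macrophages in both replicates 1. *Rac2*, the GTPase of the phagocyte oxidase, differed by 3.39 on the log2 scale. Of the 16 tested receptors 11 were higher. Among the 11 cytokines 5 were higher and 2 lower, *Il1a* by -2.80 and *Ccl4* by -3.56 on the log2 scale, while *Il1b* did not pass (0.30, adjusted p = 0.544, edgeR). *Cebpa* and *Runx1* were lower, and *Cebpe*, *Cebpd*, *Cebpb* and *Spi1* higher in the members.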

How the data were processed

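The authors dissociated the MOE with papain, made libraries with the 10X Chromium v3 kit and aligned them with Cell Ranger with introns included. They deposited counts, whole UMIs per gene and cell barcode that are not normalized. The processing notes name mm10. The swap and control matrix headers give software version 3.1.0, and those of *tetOP2* and *gg8tTA* give none. The series' design text speaks of sorted cells, and no gate is given. Libraries held 32005196 to 63277934 UMIs and between 57.5% and 100% of barcodes were kept. Intervals are at 95% and cover counting error only.

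Members, granule ranges and gene lists were chosen with earlier results of these data known. The members' share, granule-high share and median depth were compared over 2 swap and 2 control libraries by an exact two-sided permutation test. UMIs were summed per library and class (at least 10 cells) and tested with edgeR 4.0.16 (quasi-likelihood, TMM, filterByExpr, Benjamini-Hochberg over all genes tested). Calls needed an adjusted p under 0.05 and a log2 fold change past 0.58, as in the study's RNA-seq methods. Named were all list genes, by counts with examples, the 10 genes per direction with the smallest adjusted p, for swap against control the called gene and the 3 smallest p per direction, and *Cbx1*, *Cbx5*, *Xist* and *Ddx3y*; other genes were chosen after their values were seen. On simulated counts with 200 changed genes the edgeR test recovered 92 for swap against control (18 false calls among 8836 genes), 130 for the granule ranges (0 among 6551) and 166 for macrophages (16 among 6544). Doublets were scored per library against simulated pairs of cells, and the highest-scoring cells at 0.8% per 1000 cells were left out in an alternative only. DESeq2 1.42.0, size factors, no filter, other limits, leaving out libraries and a replicate block were alternatives. Nothing says that replicates were separate animals beyond the study's statement of biological replicates, and p-values measure the spread between these libraries. Promoters are from RefSeq (GRCm38.p6), and all 7 listed secondary granule genes matched by symbol. Some items of the labels and lists are not reported here.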

Additional observations from a re-analysis of the deposited data

Results flagged for a closer look

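Barcodes under the minimum of 1000 UMIs and 500 genes, which no comparison used, also held cells of this kind. The rule was met by 58 of them, 17 and 23 in the swap libraries, 1 and 17 in the controls and 0 in *tetOP2* and *gg8tTA*, whose matrices hold no barcode of that depth.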

How the results depend on the processing

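The direction of the differences in share, granule-high share and median depth held under every alternative tried. Leaving out 1 library, the difference in member share ranged from 2.68 to 5.44 percentage points, in granule-high share from -25.0 to -5.76 points and in median depth from -2810 to -99.0 UMIs. With 2 libraries per group none of these tests could pass. For swap against control the count of called genes was 1, and it depended on the method. It was 37 with DESeq2, 250 with no filter, 162 with the replicate block, 0 without predicted doublets, 0 at a share of at least 5%, 0 in granule-low and 0 in granule-high cells alone (the last 2 chosen after seeing the data), and 15 to 139 when leaving out 1 library, where the lone library is assumed to vary like the others. With the replicate block *Chil4*, *Ccl4*, *Cd74*, *Krt81*, *Unc5b*, *Cpm* and *Wfdc17* passed, and none of these genes did in the main test. The replicate numbers are not said to mark a batch or litter, and with 2 pairs the correlation of the replicate differences between swap and control was r = 0.268 over 8836 genes. For granule-high against granule-low cells the count was 769. It was 1448 with no filter, 1408 at a share of at least 5% and 1140 of 5599 genes without predicted doublets. With a granule limit of 2% it was 1157, with 0.5% 614, and when leaving out 1 library 288 to 915. The macrophage comparison gave 2526 to 3265 when leaving out 1 library and kept its count within 1.5 times under all others. Some single genes changed direction, and not only where the value was close to 0. *Cbx1* between the genotypes became 0.0815 without predicted doublets, 0.0195 at a share of at least 5%, 0.134 in granule-high cells and -0.196 to 0.0668 when leaving out 1 library (0.0668 without control replicate 2). *Cbx5* ranged from -0.244 (without swap replicate 2) to 0.336, and was -0.0667 without control replicate 1. *Il1b*, at 0.783 in the main test, became -0.0686 without predicted doublets and -0.146 in granule-low cells. Leaving out 1 library, *Il1b* ranged from -0.154 (without swap replicate 1) to 1.35. Between the ranges *Mmp8* became -0.353 at a share of at least 5% and -0.0394 (without swap replicate 2) to 0.671 when leaving out 1 library, and *Elane* -0.379 without predicted doublets and -0.432 (without control replicate 1) to 1.11. The causes were not tested.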
